A study of Rattus norvegicus with 32 samples.

Results

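The hippocampus of formerly iron-deficient rats that had received no choline was compared with that of iron-sufficient control rats by RNA-seq in sequencing batch II. The comparison used 8 of the 32 libraries of the study, 4 from rats of the diet group ID and 4 from rats of the diet group IS, and these 8 were taken by their column names in the batch II count table. All were Sprague-Dawley rats labelled female and killed at an age of 65 days, as adults. The other libraries of batch II came from the choline groups ISch and IDch, and batch I held the 16 libraries labelled male. The study's methods describe male offspring only. There, the dams of the ID group ate an iron-deficient diet from early gestation through the first postnatal week and an iron-sufficient diet afterwards, so that no male group was on a deficient diet when it was sampled. The litters of the female rats are not described in the sources used here, so p-values measure the spread between these 8 animals, which may include litter. Each library is taken here as hippocampal tissue of 1 rat, although ID replicate 2 held Y-linked transcripts, as described below. In such mixed tissue fewer cells of a type and less RNA per cell cannot be told apart.

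Iron is a cofactor of the heme and iron-sulfur enzymes of the respiratory chain, of the hydroxylases that make dopamine, noradrenaline and serotonin, and of dioxygenases that demethylate histones and DNA. The hippocampus builds its dendrites and synapses in the perinatal weeks and draws heavily on iron at that time, and perinatal iron deficiency is known for memory deficits that outlast the deficiency. The gene groups below were chosen with that background and with earlier results of these data known. They cover iron handling, respiration, synaptic signalling, activity-regulated transcription, the stress hormone response, immune genes and the cell types of the tissue. A list's share set beside that of all genes is therefore a description and not an independent test.

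One library went against its sex label. Kdm5d and Eif2s3y, both encoded on the Y chromosome, had no count in the 15 other libraries labelled female. The library labelled female ID replicate 2 had 188 counts of Kdm5d and 297 of Eif2s3y, or 9.75 and 15.4 CPM, that is, counts scaled to a common library total. These levels were 17.7% and 20.8% of the mean of the 16 libraries labelled male, which ranged from 48.7 to 60.7 CPM for Kdm5d and from 64.9 to 84.7 CPM for Eif2s3y. Of 5 entries with at least 1 CPM in each of the other 15 female libraries and at most 2 counts in every male library, 2 were at 0 in ID replicate 2. Conversely, 124 entries had at least 1 CPM in every male library and at most 2 counts in each of the other female libraries. ID replicate 2 had any count in 15 of them. In 4 it exceeded 10% of the male level, namely Kdm5d and Eif2s3y again, Ddx3 (14.4%) and AC241873.1 (22.2%). The median over the 124 entries was 0% of the male level. Male and female libraries came from different batches, so entries of either set can differ by batch as well as by sex. How this library came to hold Y-linked transcripts was not tested, and values without it are given for the counts and for most of the genes named. IS replicate 3 also stood apart, with 120.1 CPM of Pomc, the precursor of the melanocortins and beta-endorphin, against 0.732 to 2.56 CPM in the other IS rats and 1.10 to 1.47 CPM in the ID rats.

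The 8 libraries held 19109501 to 26057663 counts on genes, with a median of 23177330, so that a count of 0 allowed up to 0.115 to 0.157 CPM. Mitochondrially encoded genes took 6.92% to 8.02% of the counts. On the main axis of variation, which carried 19.4% of the variance, the ID libraries (8.59 to 20) lay apart from the IS libraries (-18 to -7.92). From here on, CPM values are normalised for library composition by the TMM method, values of a group are given in the order of its replicates 1 to 4, and a log2 fold change is ID over IS with its standard error (SE). A gene met the criterion when its absolute log2 fold change was over 0.2 and its unadjusted p under 0.05. These thresholds are those of the study, and the p here is from edgeR's quasi-likelihood test.

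Of 14632 genes tested, 947 (6.47%) met the criterion, 450 of them higher (3.08%) and 497 lower (3.4%) in the ID rats. The changes were mostly small, with a median absolute log2 fold change of 0.347 among the 947 genes and 667 of them under 0.5. At a Benjamini-Hochberg adjusted p under 0.05 there were 28 genes (0.191%), 13 higher and 15 lower, and in each of the 28 the 4 ID values lay entirely above or below the 4 IS values. Over all genes tested, 954 (6.52%) showed such separation. Leaving out ID replicate 2 gave 968 genes at the criterion, 485 higher and 483 lower, and 721 (76.1%) of the 947 were among them. The number at an adjusted p under 0.05 depended on single libraries. It was 10 without ID replicate 2, 13 without IS replicate 1, 15 without ID replicate 4, 16 without ID replicate 1, 18 with IS replicate 4 left out and 62 with IS replicate 3 left out. The 10 genes left without ID replicate 2 were all among the 28, and those described here by name are both Rps27a entries, Zfp189, Hdc, Gsn, Clk1, RT1-A2 and RT1-M6-2.

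**Figure D1:**
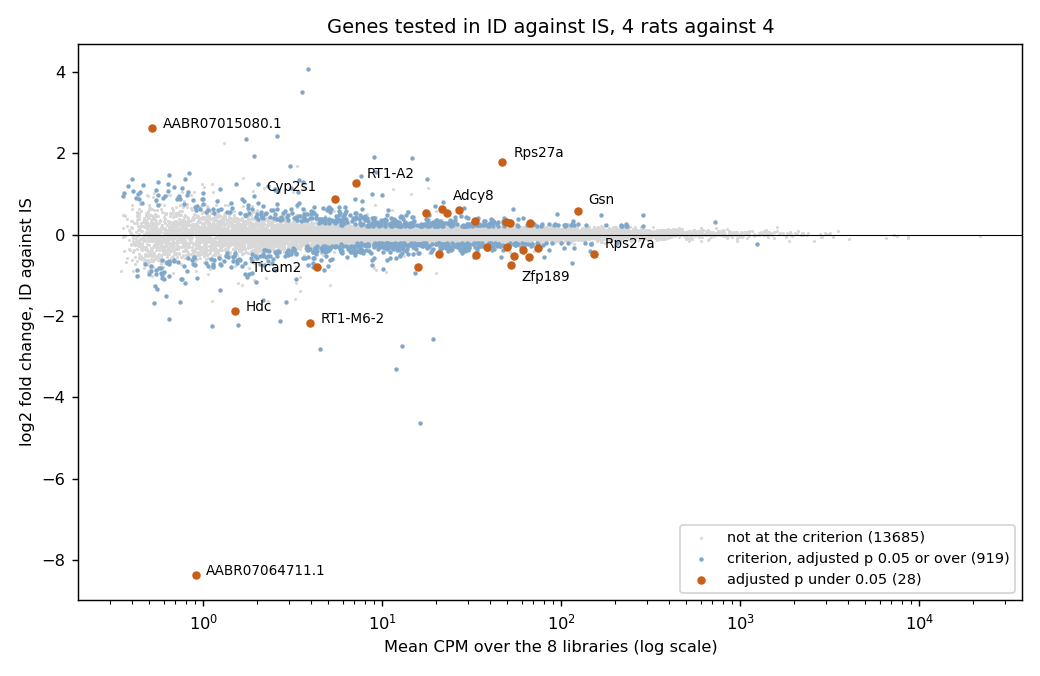
Log2 fold change of ID over IS (vertical axis) against mean CPM on a log scale (horizontal axis) for the 14632 genes tested in the 8 libraries. Points are coloured by whether a gene met neither limit, met the criterion (947 genes) or had an adjusted p under 0.05 (28 genes). Most called genes lie close to the criterion's limit of 0.2, and the 28 are spread over both directions.

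The 20 leading entries described first were chosen for an adjusted p under 0.05 and for groups that did not overlap. Their separation is therefore part of the choice and not a further result. Among the genes that were higher in the ID rats, Gsn and Adcy8 were expressed well above the floor in every library. Gsn encodes gelsolin, which severs and caps actin filaments and is abundant in oligodendrocytes. It was at 105, 89.4, 103 and 97.0 CPM in the IS rats and at 135, 157, 162 and 137 CPM in the ID rats. Every ID rat exceeded every IS rat, and Gsn rose by a log2 fold change of 0.58 ± 0.07 (SE, adjusted p = 0.00357, 0.56 without ID replicate 2). Adcy8 encodes a calcium-stimulated adenylyl cyclase of synapses. Its values were 14.6, 17.5, 16.7 and 19.5 CPM in the IS rats against 28.3, 24.8, 23.6 and 28.2 CPM in the ID rats, again without overlap. The log2 fold change of Adcy8 was 0.62 ± 0.09 (SE, adjusted p = 0.017, 0.65 without ID replicate 2).

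Several other genes rose without overlap between the groups. Fbxl2, a substrate adaptor of ubiquitin ligases, was at 19.4, 25.7, 20.4 and 20.5 CPM in the IS rats and 31.8, 35.6, 30.1 and 32.5 CPM in the ID rats, with a log2 fold change of 0.59 ± 0.09 (SE, adjusted p = 0.017, 0.55 without ID replicate 2). Mex3b, an RNA-binding ubiquitin ligase, lay between 17.1 and 21.4 CPM in the IS rats and between 26.8 and 28.2 CPM in the ID rats (log2 fold change 0.54, 0.54 without ID replicate 2). Birc2, the ubiquitin ligase cIAP1, ranged from 28.3 to 30.2 CPM and from 34.5 to 38.8 CPM (0.33, 0.32 without). In all 3 genes the lowest ID rat was above the highest IS rat. Glb1, the lysosomal beta-galactosidase, reached 12.6 to 16.6 CPM in the IS rats and 19.5 to 23.0 CPM in the ID rats (0.53, 0.55 without). Cyp2s1, a cytochrome P450, was at 3.16 to 4.74 CPM in the IS and 6.31 to 7.61 CPM in the ID rats (0.88, 0.84 without). Txnip, an inhibitor of thioredoxin and of glucose uptake, was at 40.8 to 46.1 CPM in the IS and 52.2 to 55.4 CPM in the ID rats (0.31, 0.30 without). The adjusted p of Mex3b, Birc2, Glb1, Cyp2s1 and Txnip lay between 0.0119 and 0.0402 with all 8 libraries, and neither these 5 genes nor Adcy8 and Fbxl2 kept an adjusted p under 0.05 without ID replicate 2. Fbxl2, Glb1 and Cyp2s1 overlap another gene in the RefSeq annotation, as do 31 of the 96 named entries in all. Among those described below are RT1-A2, Cryab, Kcnj9, Shank1, Creld2, Glul, Grin3a, Grin2d, Dnah9, Slc40a1 and Pomc. The libraries were made with an unstranded kit, so strand does not separate reads of overlapping genes.

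Zfp189 fell in the ID rats. This zinc finger transcription factor was at 65.3, 63.4, 64.6 and 67.3 CPM in the IS rats and at 36.8, 43.6, 42.5 and 33.6 CPM in the ID rats. The IS rats were nearly alike and every ID rat lay far below them, with a log2 fold change of -0.74 ± 0.07 (SE, adjusted p = 0.001, -0.79 without ID replicate 2). Zfp189 and Gsn were the named genes whose adjusted p stayed under 0.05 in all of the 16 other settings tried. Clk1, a kinase that phosphorylates the serine/arginine-rich splicing factors, was at 75.6, 75.7, 79.6 and 83.4 CPM in the IS rats and 57.7, 58.3, 51.0 and 48.4 CPM in the ID rats. Its groups did not overlap either (log2 fold change -0.55 with an SE of 0.06, adjusted p = 0.00357, -0.58 without ID replicate 2).

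Hdc encodes histidine decarboxylase, which makes histamine. It was low, at 2.72, 1.66, 2.41 and 2.64 CPM in the IS rats and 0.405, 0.939, 0.681 and 0.561 CPM in the ID rats. The highest ID value was still under the lowest IS value, and the log2 fold change was -1.88 ± 0.27 (SE, adjusted p = 0.0163, -2.10 without ID replicate 2). Ddit4, the mTORC1 inhibitor REDD1 and a target of glucocorticoids, was at 69.5, 58.3, 59.2 and 68.8 CPM in the IS rats and 42.0, 44.2, 49.8 and 42.8 CPM in the ID rats. Ddit4 fell without overlap (log2 fold change -0.52 ± 0.07, adjusted p = 0.0119, -0.51 without ID replicate 2). The other named genes that fell were Ticam2, an adaptor of Toll-like receptor signalling (-0.80, -0.74 without ID replicate 2), Epha8, an ephrin receptor (-0.51, -0.49 without), Ackr3, a scavenging receptor of the chemokine Cxcl12 (-0.48, -0.48 without), and Slc9a4, a sodium-proton exchanger (-0.38, -0.41 without). Their adjusted p ranged from 0.0187 to 0.0443 with all 8 libraries, and without ID replicate 2 neither Ddit4 nor any of these 4 stayed under 0.05.

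Of the adjusted calls, 4 named entries belong to genes with near-identical copies, and their values are uncertain because the treatment of reads that map to several copies is not given in the sources used here. Rps27a, which encodes ubiquitin fused to a ribosomal protein, had an entry that rose (ENSRNOG00000034246, 15.4, 27.7, 24.6 and 16.3 CPM in the IS and 78.8, 57.7, 82.3 and 72.1 CPM in the ID rats). It had another that fell (ENSRNOG00000004426, 188, 164, 185 and 170.4 CPM against 124, 129, 123 and 135 CPM). The log2 fold changes were 1.78 and -0.47 (1.88 and -0.47 without ID replicate 2), but the sum of both entries was 197.8 ± 10.4 CPM in the IS and 200.6 ± 9.16 CPM in the ID rats (SD, n = 4 each), a difference smaller than the spread within either group. RT1-A2, a classical class I histocompatibility gene, was at 4.12, 3.58, 4.94 and 4.03 CPM in the IS and 9.79, 13.04, 8.70 and 8.54 CPM in the ID rats (log2 fold change 1.26, adjusted p = 0.00382, 1.12 without ID replicate 2). RT1-M6-2, a non-classical class I gene, moved the other way, from 5.13, 5.67, 9.80 and 5.29 CPM to 1.54, 1.72, 1.78 and 0.762 CPM (-2.17, adjusted p = 0.00567, -2.26 without ID replicate 2). Neither RT1 gene overlapped between the groups. Both differed widely between rats of the ISch group of batch II, in values computed on the 16 libraries of the batch. RT1-A2 was at 3.969, 16.75, 15.58 and 15.85 CPM there and RT1-M6-2 at 11.86, 1.414, 1.113 and 0.5944 CPM. How far these genes differ between rats apart from diet was not tested.

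**Figure D2:**
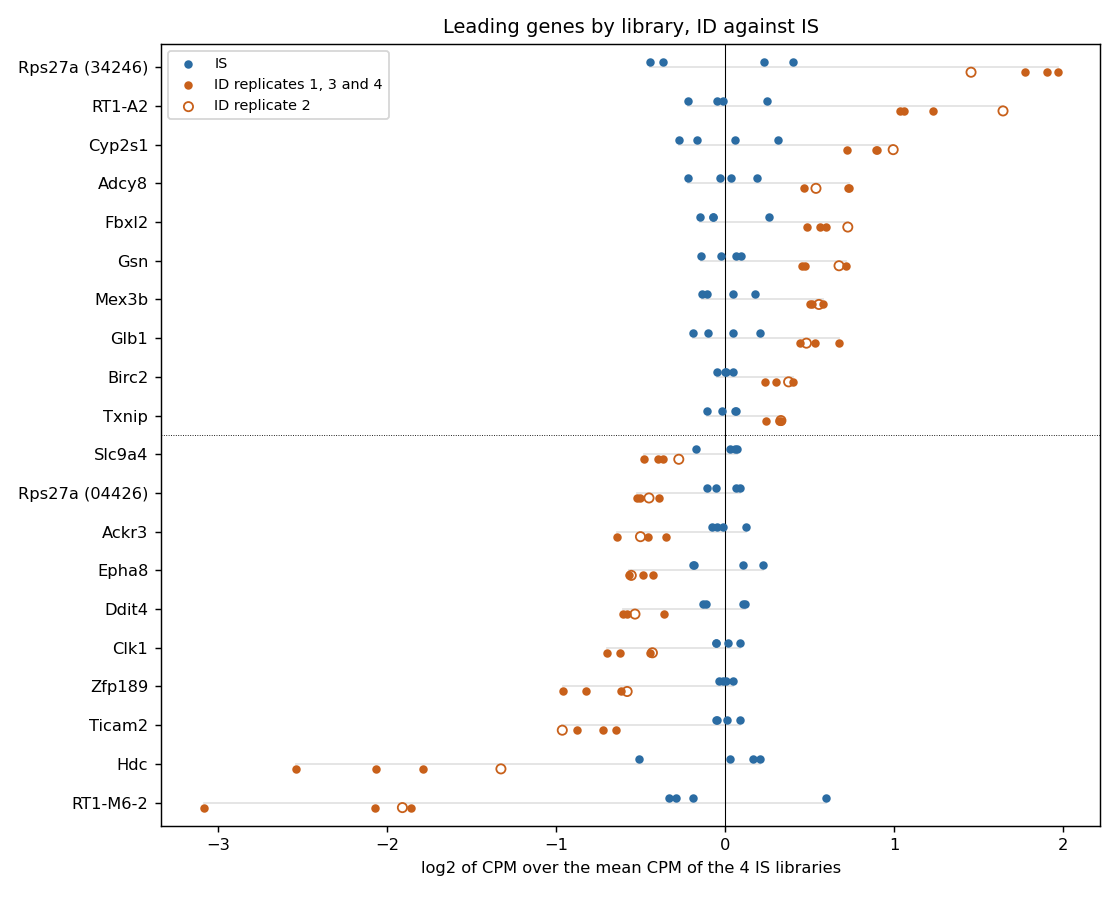
Each library's log2 CPM relative to the mean of the IS group (horizontal axis) for 20 named entries, 10 higher and 10 lower in ID. Points are the 4 IS and 4 ID libraries, the open circle is ID replicate 2, and the Rps27a entries are told apart by the last digits of their identifiers. In every row the IS and ID points are separate, which was a condition for choosing these entries.

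Genes induced by glucocorticoids that met the criterion were lower in the ID rats. Corticosterone, the stress hormone of rats, crosses into the brain and binds receptors that are dense in the hippocampus, and the target genes follow the hormone over hours. The list was made of such targets and also of the receptor genes Nr3c1, Nr3c2 and Crhr1 and the enzyme gene Hsd11b1. Of its 15 tested members, 8 met the criterion, all lower, against a background of 3.4% of all genes for lower calls. Of the 15 fold changes 2 were positive, up to 0.354. The median log2 fold change of the list was -0.232 and that of all genes tested 0.000279. Without ID replicate 2 the list also had 8 lower members and a median of -0.277, and over the settings tried it had 6 to 8. Its summed level was 625 to 767.1 CPM in the IS rats and 577 to 616.2 CPM in the ID rats.

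Beside Ddit4, the kinase gene Sgk1, which regulates ion channels and transporters, was at 106, 76.1, 81.5 and 117 CPM in the IS rats and 65.3, 67.3, 63.7 and 64.8 CPM in the ID rats. The IS rats were spread widely while the ID rats were nearly equal and below all of them (log2 fold change -0.54 ± 0.11 SE, adjusted p = 0.0726, -0.55 without ID replicate 2). Nfkbia, the inhibitor of NF-kappaB, was at 21.1, 15.4, 16.9 and 19.8 CPM in the IS and 13.03, 12.5, 14.4 and 13.1 CPM in the ID rats (-0.46 ± 0.10 SE, -0.43 without ID replicate 2). Errfi1, a feedback inhibitor of the EGF receptor, ranged from 45.4 to 52.6 CPM and from 39.0 to 43.3 CPM (-0.26, -0.29 without). Tsc22d3, the anti-inflammatory leucine zipper protein GILZ, ranged from 60.9 to 74.7 CPM and from 47.6 to 57.0 CPM (-0.32, -0.34 without). For Ddit4, Sgk1, Nfkbia, Errfi1 and Tsc22d3 the groups did not overlap. The other 3 members at the criterion were Fkbp5, a co-chaperone of the glucocorticoid receptor (-0.23), Per1, a clock gene with a glucocorticoid-driven promoter (-0.24, -0.24 without), and Plin4, a coat protein of lipid droplets (-0.47). Fkbp5 and Per1 did not overlap between the groups, whereas Plin4 did. Of the 8 genes, Ddit4 alone passed the adjusted p.

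Immediate early genes are switched on within minutes of neuronal activity and include transcription factors and synaptic effectors. Of 32 members tested, 9 met the criterion as higher and 4 as lower in the ID rats, against 3.08% and 3.4% of all genes, and the list's median log2 fold change was 0.0788. Without ID replicate 2 these numbers were 11 and 6, with a median of 0.14, and without ID replicate 4 they were 4 and 4. Npas4, an activity-dependent transcription factor of inhibitory synapses, was at 6.89, 6.59, 6.87 and 3.23 CPM in the IS and 16.5, 7.46, 9.38 and 13.6 CPM in the ID rats. The groups did not overlap, although ID replicate 2 lay close to the IS rats (log2 fold change 1.01 ± 0.26 SE, adjusted p = 0.155, 1.17 without ID replicate 2). Bdnf, the neurotrophin that supports synaptic plasticity, was at 33.5, 36.4, 37.0 and 37.3 CPM against 40.3, 38.5, 44.0 and 49.4 CPM, also without overlap (0.26 ± 0.07 SE, adjusted p = 0.206, 0.31 without). Nr4a3, an orphan nuclear receptor, ranged from 65.1 to 74.1 CPM in the IS and from 79.7 to 99.7 CPM in the ID rats (0.26, 0.29 without). Egr1, a zinc finger factor of long-term potentiation, was at 129, 136, 127 and 115 CPM in the IS rats and 148, 149, 133 and 167 CPM in the ID rats, where 1 ID value fell within the IS range (0.23, 0.24 without).

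Members of the list that fell were Dusp5, a phosphatase that inactivates ERK (-0.53, -0.60 without ID replicate 2), Sik1, a kinase that restrains CREB-driven transcription (-0.62, -0.69 without), Nr4a1, an orphan nuclear receptor (-0.27, -0.29 without), and Per1, which is also on the glucocorticoid list. Dusp5 was at 15.6, 15.1, 12.5 and 16.0 CPM in the IS and 8.376, 11.996, 8.962 and 11.75 CPM in the ID rats and did not overlap. Sik1 overlapped by 1 IS value, at 9.457, 14.95, 11.63 and 15.40 CPM against 9.02, 9.75, 7.55 and 7.26 CPM. Of the classical markers of recent activity, neither Fos (0.61 ± 0.30 SE, unadjusted p = 0.061) nor Arc (-0.11 ± 0.12 SE, unadjusted p = 0.36, -0.03 without) met the criterion with all 8 libraries. Fos met it in 6 of 16 other settings, and its log2 fold change was 1.02 without IS replicate 3 and 0.32 without ID replicate 2. It was at 9.004, 11.18, 23.79 and 10.70 CPM in the IS rats and 19.1, 32.6, 14.2 and 17.9 CPM in the ID rats, the high IS value belonging to IS replicate 3 and the highest ID value to ID replicate 2.

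Interferon-induced and antigen-presentation genes that met the criterion were higher in the ID rats. Interferon receptors activate a transcription factor complex that binds the interferon-stimulated response element, a tandem of GAAA blocks, in the promoters of antiviral genes. Of 28 members tested, 6 met the criterion, all higher, against 3.08% of all genes, and 23 of the 28 fold changes were positive, with a median log2 fold change of 0.172 against 0.000279 over all genes. Without ID replicate 2 the number was also 6 and the median 0.18. It was 2 without ID replicate 3, 3 without either IS replicate 3 or ID replicate 4, and 9 with IS replicate 4 left out. The list's summed level was 451.6 to 516.9 CPM in the IS rats and 513.7 to 588 CPM in the ID rats, while that of 13 microglial markers was 494 to 521.6 CPM and 475.1 to 549.9 CPM.

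The core of the element, taken as 2 GAAA blocks separated by any 2 bases on either strand, was searched in the 250 bases before the RefSeq transcription start (assembly GRCr8). It occurred in 3.41% of 33469 promoters of all genes, in 10 of the 24 promoters that the table holds for list members, and in those of 4 of the 6 members at the criterion. A match is a description of the letters and not evidence of binding. The 4 promoters are shown because they carry the element in genes that were higher in the ID rats, each 5' to 3' on the strand of its gene with the match in capitals, and a match on the opposite strand reads as a pair of TTTC blocks.
Ifi27, chr6:128355062-128355311, plus strand: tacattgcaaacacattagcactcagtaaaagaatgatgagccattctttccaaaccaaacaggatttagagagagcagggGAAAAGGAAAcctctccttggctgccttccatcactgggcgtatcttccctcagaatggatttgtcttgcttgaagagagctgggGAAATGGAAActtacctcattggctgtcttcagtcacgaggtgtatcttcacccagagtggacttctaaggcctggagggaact
Irf7, chr1:205800024-205800273, minus strand: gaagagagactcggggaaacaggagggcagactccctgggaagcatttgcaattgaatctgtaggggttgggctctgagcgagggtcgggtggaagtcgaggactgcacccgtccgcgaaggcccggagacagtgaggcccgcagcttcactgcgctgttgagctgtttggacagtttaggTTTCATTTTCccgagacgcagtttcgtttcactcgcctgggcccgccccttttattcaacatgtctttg
RT1-S3, chr20:2675278-2675527, plus strand: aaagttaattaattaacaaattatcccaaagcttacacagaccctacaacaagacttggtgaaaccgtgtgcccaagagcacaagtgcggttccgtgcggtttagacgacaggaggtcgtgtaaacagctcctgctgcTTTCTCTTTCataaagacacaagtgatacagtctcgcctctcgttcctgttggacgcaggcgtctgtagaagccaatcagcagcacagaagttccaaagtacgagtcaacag
Rsad2, chr6:48788121-48788370, minus strand: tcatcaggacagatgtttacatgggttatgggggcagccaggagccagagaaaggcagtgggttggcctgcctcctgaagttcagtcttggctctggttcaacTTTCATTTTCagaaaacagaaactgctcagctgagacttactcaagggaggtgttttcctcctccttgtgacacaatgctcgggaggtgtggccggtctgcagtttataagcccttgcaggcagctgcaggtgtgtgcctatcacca

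Ifi27, an interferon-induced mitochondrial membrane protein with 2 matches in its promoter, was at 91.2, 83.9, 84.5 and 93.6 CPM in the IS and 93.9, 109.5, 111 and 99.7 CPM in the ID rats. The lowest ID value was just above the highest IS value (log2 fold change 0.23 ± 0.06 SE, adjusted p = 0.156, 0.20 without ID replicate 2). Irf7, the transcription factor that amplifies type I interferon production, was at 4.48, 3.89, 1.62 and 5.45 CPM against 4.05, 5.79, 8.70 and 6.41 CPM. Its groups overlapped, and IS replicate 3 was lowest (0.68 ± 0.30 SE, adjusted p = 0.422). Rsad2, which encodes the antiviral enzyme viperin, was also lowest in IS replicate 3, at 1.26, 1.66, 0.525 and 1.93 CPM in the IS and 2.51, 1.62, 2.52 and 2.29 CPM in the ID rats (0.73 ± 0.31 SE, adjusted p = 0.411, 0.85 without ID replicate 2). RT1-S3, a non-classical class I gene, was at 17.0, 17.4, 14.3 and 19.6 CPM and at 19.0, 18.3, 22.6 and 21.7 CPM (0.25 ± 0.10 SE, adjusted p = 0.371, 0.31 without). The members at the criterion without a match were RT1-A2 and Oasl, an oligoadenylate synthetase-like gene, at 0.154 to 0.378 CPM in the IS and 0.481 to 0.626 CPM in the ID rats (1.06, and 0.9986 without). RT1-A2 alone of the 6 passed the adjusted p. Irf7 is named because its promoter is shown, a choice made after its values were seen.

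The glucocorticoid response element, taken as GNACA and TGTNC separated by any 3 bases, occurred in 0.373% of all promoters and in none of the 12 glucocorticoid-list promoters found in the table, and the cAMP response element TGACGTCA in 1.59% of all promoters and in 5 of 25 immediate early gene promoters, 2 of them among 12 promoters of members at the criterion. These 2 genes, Ier2 and Vgf, were both higher in the ID rats (log2 fold change 0.41 and 0.29). Ier2 and Vgf were singled out after their values were seen.

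**Figure D3:**
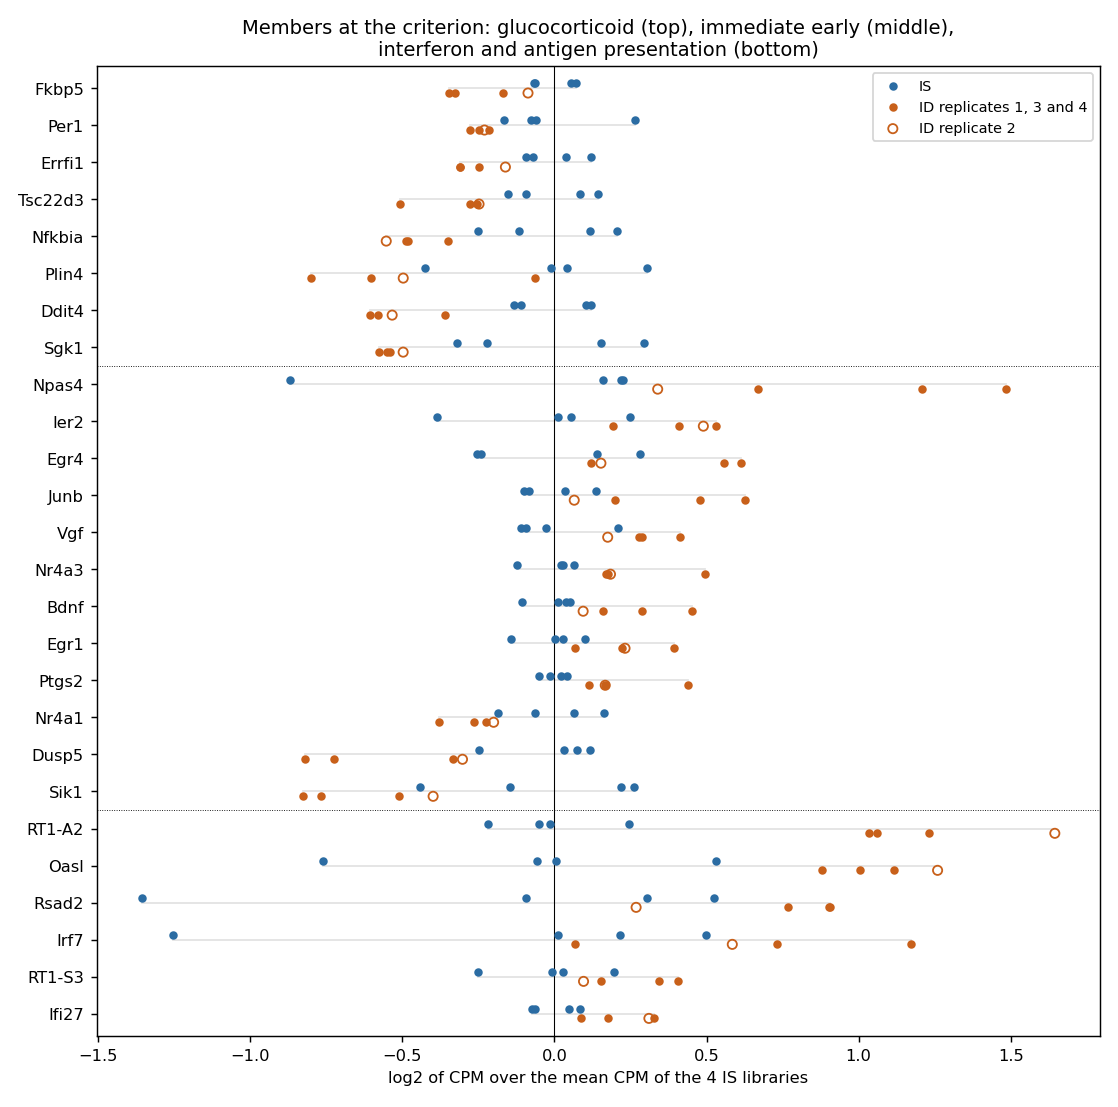
Log2 CPM of each library relative to the IS mean (horizontal axis) for the members at the criterion of the glucocorticoid (8 genes, with Per1 shown there), immediate early (12 genes) and interferon (6 genes) lists. Points are the 4 IS and 4 ID libraries and the open circle is ID replicate 2. All 8 glucocorticoid-list genes lie to the left in ID and all 6 interferon-list genes to the right, while immediate early genes lie on both sides.

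Genes of iron handling did not meet the criterion. None of the 39 tested members was called by edgeR in either direction, nor by DESeq2, and the median log2 fold change was -0.00817. Over all genes 6.47% met the criterion in edgeR. By unadjusted p alone, 2 were under 0.05, Tfrc and Tf, against 1641 of the 14632 genes tested. Tfrc, the transferrin receptor that takes iron into cells, was at 146, 136, 128 and 129 CPM in the IS rats and 148, 156, 148 and 156 CPM in the ID rats. The groups did not overlap, but the log2 fold change of 0.17 ± 0.05 (SE, unadjusted p = 0.00286, adjusted p = 0.179) was under the fold limit, and it was 0.16 without ID replicate 2. Tf, the iron carrier transferrin made by oligodendrocytes, had a log2 fold change of 0.14 with overlapping groups. Fth1, the ferritin heavy chain that stores iron, was at 1318, 1129, 1223 and 1099.9 CPM against 1112, 1109, 1334 and 1230.4 CPM, a difference within the spread of either group (group means 1192 ± 98.8 and 1196 ± 108 CPM, SD, n = 4 each).

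The importer Slc11a2, also known as DMT1 (log2 fold change -0.04 ± 0.05 SE), the iron sensors Aco1 (0.03 ± 0.05 SE) and Ireb2 (0.12 ± 0.06 SE), and the exporter ferroportin, Slc40a1 (-0.03 ± 0.19 SE), likewise missed the criterion with overlapping groups. Ftl1, a ferritin light chain entry, was at 0.503 to 0.962 CPM in the IS and 0.566 to 1.05 CPM in the ID rats, and Hamp, the iron hormone hepcidin, was too low to test. Of 71 nuclear genes of the respiratory chain, none met the criterion, with a median of 0.00944 and, by unadjusted p alone, 2 genes under 0.05. Among 13 mitochondrially encoded genes 1 entry met it, Mt-nd4 of complex I (0.63 ± 0.19 SE, overlapping groups, 0.61 without ID replicate 2). That is 7.69% of the list, near the 6.47% of all genes. Mt-nd4 was at 26.1 to 55.4 CPM in the IS and 49.1 to 74.2 CPM in the ID rats. These values are a small part of the list's summed level, 68910 to 79340 and 72090 to 73790 CPM. Of the 13 fold changes 10 were negative, with a median of -0.0448, and that of Mt-nd4 in batch I was -0.31. Leaving out ID replicate 2, none of 40 iron-handling and none of 72 nuclear respiratory genes met the criterion in edgeR, against 6.54% of all genes.

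Genes of synaptic signalling that met the criterion were higher in the ID rats in each of the lists for glutamate receptors (3 of 24), the GABA system (3 of 20), monoamine and acetylcholine receptors (5 of 27), neuropeptides (3 of 16), plasticity kinases and scaffolds (3 of 39), ion channels (1 of 51) and vesicle release (1 of 36), and no member of these lists met it as lower. Over all genes 3.08% met it as higher, and the shares in the ion channel (1.96%) and vesicle release (2.78%) lists were below that. The lists' median log2 fold changes were between 0.0336 and 0.145. Without ID replicate 2 the counts were 2, 3, 4, 3, 4, 3 and 1 in the same order. Slc17a6, the vesicular glutamate transporter VGLUT2, was at 12.4, 12.9, 21.7 and 12.8 CPM in the IS and 24.6, 24.0, 20.7 and 27.5 CPM in the ID rats, where the high IS value was again IS replicate 3. Its log2 fold change was 0.70 ± 0.16 (SE, adjusted p = 0.113, 0.71 without ID replicate 2) and 0.93 without IS replicate 3.

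Among receptors, Drd1, the dopamine D1 receptor, was at 3.42, 5.63, 5.47 and 4.53 CPM in the IS rats and 7.93, 7.41, 6.71 and 8.42 CPM in the ID rats, without overlap (log2 fold change 0.67 ± 0.15 SE, adjusted p = 0.097, 0.69 without ID replicate 2). Drd1 is also a marker of the striatum, and the other 7 tested striatal markers had no member at the criterion with all libraries. Of the 8, 7 fold changes were positive, with a median of 0.0988, and 2 met the criterion as higher without ID replicate 2. In that setting 6.54% of all genes met it in either direction. Htr1a, the serotonin 1A receptor, was at 29.2 to 33.5 CPM and 34.9 to 39.7 CPM (0.25, 0.27 without) and did not overlap. Adrb1, the beta-1 adrenoceptor (0.58, 0.64 without), and Chrna5, a nicotinic receptor subunit (0.57, 0.56 without), were higher with overlapping groups. Adra2a, the alpha-2A adrenoceptor, met the criterion with all libraries (0.22) and lost it without ID replicate 2 (0.19).

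Of the GABA genes, Slc32a1, the vesicular GABA transporter, was at 61.1, 57.1, 57.6 and 61.8 CPM in the IS and 69.4, 69.5, 75.5 and 66.1 CPM in the ID rats, without overlap (log2 fold change 0.24 ± 0.05 SE, adjusted p = 0.0782, 0.25 without ID replicate 2). The receptor subunit gene Gabra3 (0.40, 0.38 without) was higher with overlap. Among glutamate receptors the subunits were Grin3a of the NMDA receptor (0.49, 0.42 without), Grik3 of the kainate receptor (0.28, 0.22 without) and Grin2d of the NMDA receptor (0.21, 0.21 without), and Grik3 and Grin2d missed the criterion without ID replicate 2. Shank1, a scaffold of the postsynaptic density, was at 672, 653, 576 and 681 CPM against 749, 805, 881 and 747 CPM and did not overlap (0.30 ± 0.06 SE, adjusted p = 0.0726, 0.30 without). The kinase genes Camk2g (0.41, 0.43 without) and Camk2d (0.31, 0.34 without) met the criterion with overlapping groups, and the G protein-gated potassium channel gene Kcnj9 without overlap (0.26 ± 0.05 SE, adjusted p = 0.0697, 0.28 without). The neuropeptide genes were Adcyap1, which encodes PACAP (0.30, 0.28 without), Cck for cholecystokinin (0.24, 0.29 without) and Nts for neurotensin (0.23, 0.28 without).

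Markers of cell types and regions were read beside these groups. Of 10 markers of cortex and subiculum, which adjoin the hippocampus, 2 met the criterion as higher, against 3.08% of all genes, and the summed level of the list was 421.6 to 463.3 CPM in the IS and 475.3 to 512.2 CPM in the ID rats, without overlap. Those 2 were Etv1 (0.26, 0.24 without ID replicate 2) and Fn1 (0.33, 0.29 without, where it missed the criterion). Tbr1, a transcription factor of excitatory neurons and of deep cortex, was at 16.4, 15.7, 15.9 and 15.7 CPM and at 21.3, 18.5, 18.7 and 22.4 CPM (0.35 ± 0.08 SE, adjusted p = 0.102, 0.39 without). Their part in the synaptic and activity-gene results was not tested. Of the hippocampal fields, CA1 had 1 of 6 markers at the criterion as higher, 5 of 6 positive fold changes and a median of 0.173 (0.16 without ID replicate 2), while CA2 and CA3 (11 tested) and the dentate gyrus (9 tested) had none in edgeR with all libraries, nor any member with an unadjusted p under 0.05. Without ID replicate 2, 1 of the 9 dentate gyrus markers met it as lower, where 6.54% of all genes met it in either direction.

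Of 14 astrocyte markers tested, 13 had a negative log2 fold change, 2 met the criterion as lower and 1 as higher, against 3.4% and 3.08% of all genes, and the median was -0.0774. Glul, the glutamine synthetase, was at 1437, 1329.5, 1278 and 1301 CPM in the IS and 1068, 1047, 1257 and 1206 CPM in the ID rats, without overlap. Its log2 fold change was -0.22 ± 0.06 (SE, adjusted p = 0.164), and without ID replicate 2 it was -0.18, under the fold limit. Gjb6, the gap junction protein connexin 30, was also lower (-0.25, -0.23 without). Gja1, which encodes connexin 43, and Aqp4, the water channel of astrocyte endfeet, had log2 fold changes of -0.16 and -0.11 without overlap. The exception was Sox9, a glial transcription factor, with 0.28 (0.38 without). Gfap, the astrocyte filament protein, was at 834, 858, 884 and 879 CPM in the IS and 832, 758, 996 and 808 CPM in the ID rats, which overlapped. The summed astrocyte level was 7009 to 7570 CPM and 6568 to 7115 CPM.

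Ependymal markers had a median log2 fold change of -0.351 over 7 tested, and their summed level was 88.86 to 91.54 CPM in the IS and 67.27 to 77.46 CPM in the ID rats. Dnah9, a dynein of motile cilia, was at 50.8, 50.8, 56.4 and 54.5 CPM against 41.6, 45.0, 45.0 and 33.3 CPM and was the 1 member at the criterion (-0.37 ± 0.08 SE, adjusted p = 0.11, -0.41 without ID replicate 2), and 2 of the 7 met it when ID replicate 2 was left out. Over all genes 3.4% met it as lower, and 6.54% in either direction without ID replicate 2. Choroid plexus markers were at 100.2 to 119.3 CPM in the IS and 111 to 130 CPM in the ID rats, and Ttr, its defining gene, was at 2.89 to 4.93 CPM and at 2.104 to 3.769 CPM except for 14.5 CPM in ID replicate 3. Blood markers overlapped, at 86.16 to 206.4 CPM and 139.1 to 206.9 CPM. Mbp of myelin (2383 to 3254 CPM and 2640.1 to 3103 CPM) and Aif1 of microglia (10.7 to 12.6 CPM and 10.9 to 11.5 CPM) overlapped between the groups.

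The counts in the remaining lists are small and stand against 3.4% of all genes lower and 3.08% higher. The 17 RNA splicing factors tested all had negative log2 fold changes, with a median of -0.0641 and 2 at the criterion, Clk1 and its relative Clk4 (-0.43 ± 0.10 SE, adjusted p = 0.129, -0.48 without ID replicate 2). Among 18 iron-dependent chromatin enzymes 14 fold changes were negative, the median was -0.0769, and 1 (5.56%, against 6.47% of all genes in either direction) met the criterion, the hydroxylase Jmjd6 (-0.21, and -0.17 without ID replicate 2, where it missed it). By unadjusted p alone, 5 of the 18 were under 0.05, against 1641 of the 14632 genes tested. The list's summed level was 868.7 to 897.8 CPM in the IS and 833.5 to 857.1 CPM in the ID rats, without overlap. The list of chromatin methylation writers was similar, with 14 of 17 fold changes negative and a median of -0.0706. Its summed levels overlapped (898.3 to 959.1 and 899.3 to 927.9 CPM). The choline and one-carbon list also had a lower summed level without overlap (1366 to 1417 and 1322 to 1339 CPM). The circadian clock list had 3 of 18 lower, Per1, Cry1 and Nfil3, and only Per1 met the criterion without ID replicate 2. In the heat shock list the small chaperone Cryab (-0.38 ± 0.07 SE, adjusted p = 0.0577, -0.35 without) and the endoplasmic reticulum protein Creld2 (-0.27, -0.27 without) were lower, 2 of 19, both without overlap. Of 17 mTOR pathway members, Ddit4 and Sesn1, a stress-induced inhibitor of mTORC1 (-0.22, -0.22 without), were lower and Castor1, an arginine sensor of the mTORC1 pathway, was higher (0.51, 0.50 without).

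The vascular list of 12 had Slc2a1, the glucose transporter GLUT1 of the blood-brain barrier, at 122, 115, 116 and 116 CPM in the IS and 99.2, 99.4, 107 and 98.2 CPM in the ID rats, lower without overlap (-0.22 ± 0.04 SE, adjusted p = 0.0631, -0.21 without ID replicate 2). Acta2 of smooth muscle was lower (-0.40, -0.42 without) and Kdr, the VEGF receptor of endothelium, higher (0.44, 0.53 without), both with overlap. In choline and one-carbon metabolism 1 of 24 (4.17%, below the 6.47% of all genes) met the criterion, Pemt, which makes phosphatidylcholine (0.37, and 0.31 without ID replicate 2, where it missed it). None of the 16 tested members of the amyloid and tau list met the criterion in edgeR, App (0.05 ± 0.03 SE) among them, and 2 had an unadjusted p under 0.05.

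**Figure D4:**
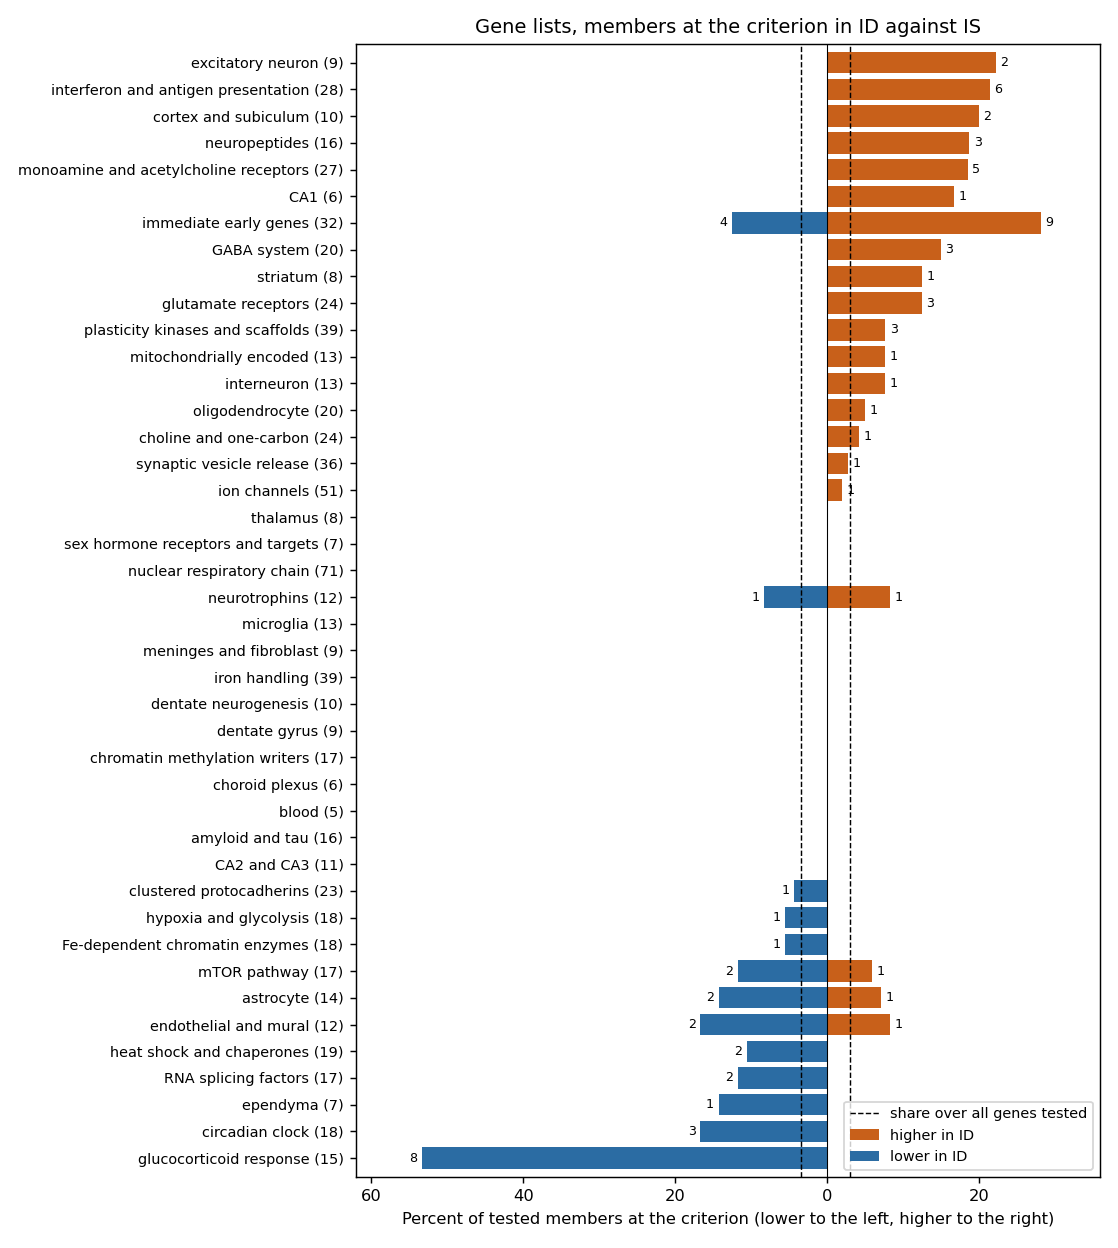
Percent of tested members at the criterion (horizontal axis), higher and lower in ID, for each gene list with at least 5 members tested. Dashed lines mark the shares over all 14632 genes, 3.08% higher and 3.4% lower. The longest bar to the lower side is the glucocorticoid list, with 8 of 15 members, and the longest to the higher side the immediate early list, with 9 of 32.

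The most similar comparison in the study is that of ID with IS in the libraries labelled male, which were sequenced in batch I, and the part of sex cannot be told apart from that of the batch. Those libraries were shallower, with 3515806 to 9517503 counts. There, 640 of 13851 genes (4.62%) met the criterion. Of 13442 genes tested in both, 850 were called in the female and 615 in the male comparison, and 57 were called in both, which is 6.71% of the female and 9.27% of the male calls. Of all 13442 genes, 4.58% were called in the male comparison. Of the 57, 24 had the same sign. Of the 850 female calls, 435 (51.2%) had the same sign in the male comparison, against 49.8% of all 13442 genes. The difference between the effects met the criterion for 1157 of 15138 genes (7.64%) and had an adjusted p under 0.05 for 6 (0.0396%), or 5 when female ID replicate 2 was left out.

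Gsn was at 114.9, 116.6, 120.3 and 145.6 CPM in the male IS rats and 104, 98.57, 81.09 and 103.7 CPM in the male ID rats. All male ID values lay below all male IS values, the opposite order to that in batch II (male log2 fold change -0.36, female minus male 0.93 ± 0.13 SE, adjusted p = 0.00486, 0.90 without female ID replicate 2). Ifi27 was lower in the male ID rats, at 76.08, 69.50, 50.85 and 80.17 CPM in the IS and 49.79, 33.17, 32.62 and 27.23 CPM in the ID rats (-0.96, difference 1.18 ± 0.19 SE, adjusted p = 0.0439, 1.15 without). Slc9a4 was at 47.52 to 49.47 CPM in the male IS and 48.69 to 63.42 CPM in the male ID rats (0.24, difference -0.64 ± 0.11 SE, adjusted p = 0.047, -0.67 without). Prrt1, an AMPA receptor-associated synaptic protein, was at 227, 213, 209.8 and 213 CPM in the IS and 232, 253, 272 and 239 CPM in the ID rats of batch II (0.21) and had a log2 fold change of -0.24 in batch I, with a difference of 0.43 ± 0.07 (SE, adjusted p = 0.047, 0.42 without). Prrt1 overlaps Ppt2 in the RefSeq annotation.

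The Rps27a entry that rose in batch II had a male log2 fold change of -0.18 and a difference of 1.94 ± 0.22 (SE, adjusted p = 0.000534, 2.04 without female ID replicate 2). Its male IS level was 66.5 ± 6.24 CPM (SD, n = 4), near that of the female ID rats and not of the female IS rats, and the other entry was at 40.7 ± 5.37 CPM in the male IS rats against 177 ± 11.5 CPM in the female ones. Hdc, too low for the male fit at 2 to 8 counts per library in the male IS and 6 to 14 in the male ID rats, had a difference of -2.80 and lies below the level set for naming genes in this comparison. Rps27a and Gsn kept an adjusted p under 0.05 for the difference in 20 of 20 other settings, Ifi27 in 7, Slc9a4 in 6 and Prrt1 in 5. Zfp189 was at 57.5 ± 2.67 CPM in the male IS and 57.6 ± 9.55 CPM in the male ID rats (SD, n = 4 each).

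**Figure D5:**
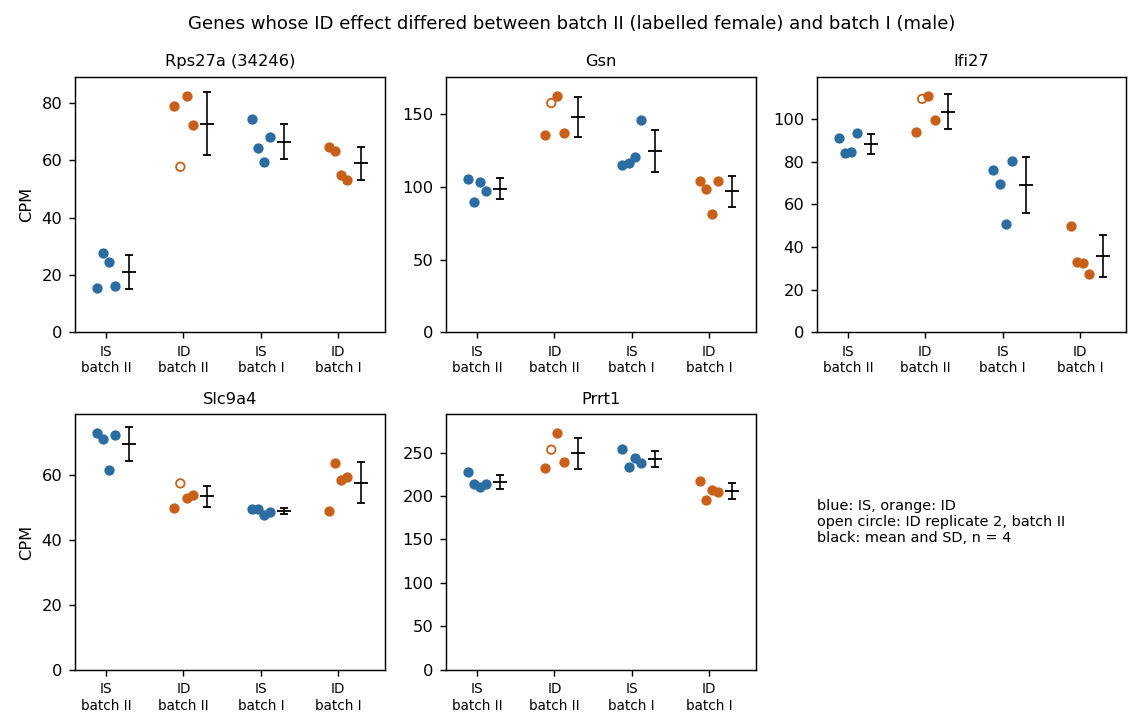
CPM of Rps27a (the entry that rose), Gsn, Ifi27, Slc9a4 and Prrt1 (vertical axes) in the IS and ID libraries of batch II (labelled female) and batch I (labelled male). Points are libraries, with an open circle for female ID replicate 2, and bars are mean ± SD with n = 4. Gsn and Ifi27 are higher in ID in batch II and lower in ID in batch I.

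The choline groups of batch II give further levels for the 20 leading entries, computed on the 16 libraries of the batch. In 7 entries all 4 ISch rats lay beyond the range of the IS rats on the same side as the ID rats, in 10 all 4 IDch rats did, and in 5 both did, namely Cyp2s1, Glb1, Ticam2, Ackr3 and Slc9a4. In these 5 the IS group stood apart from all other groups of the batch. The 20 entries had been chosen for IS values that did not overlap the ID values, which favours such counts. The share over all genes was not computed. Ticam2 averaged 5.51 CPM in IS, 3.31 in ISch, 3.18 in ID and 3.07 in IDch. Slc9a4 averaged 69.5 CPM in IS, 50.3 in ISch, 53.5 in ID and 55.7 in IDch. For Zfp189 and Ddit4 the ISch group was near IS instead. Zfp189 averaged 65.4 CPM in IS, 66.5 in ISch, 39.3 in ID and 54.8 in IDch, and Ddit4 64.2, 64.7, 44.9 and 51.5 CPM in the same order. Gsn averaged 99.0, 117.5, 149 and 117 CPM. Comparisons of these groups with IS share the 4 IS libraries, and no test was made across them.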

How the data were processed

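RNA-seq was made from rat hippocampus with an unstranded TruSeq kit. Per the labels, the submitters' processing notes name FastQC, Trimmomatic, HISAT2, featureCounts of Subread and the build Rnor_6.0, and the authors deposited raw counts per gene without normalization. The strand setting and the handling of reads that map to several genes are not given in the sources used here. Of the 32883 entries, 2799 share a symbol with another.

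The 4 ID and 4 IS libraries of batch II were fitted alone with edgeR 4.0.16 in R 4.3.3, using filterByExpr, TMM factors and the 2-sided quasi-likelihood test. The study's thresholds, set there on another edgeR model, and the Benjamini-Hochberg adjusted p were both counted. The difference from batch I was an interaction term over 16 libraries. In simulated data of 14540 tested genes for the comparison of ID with IS, 3.01% of unchanged genes met the criterion, as did 79.5% of 83 genes changed by 0.3, 92.7% of 55 changed by 0.5 and 98.4% of 62 changed by 1 on the log2 scale. The simulated counts followed the negative binomial model with dispersions estimated from these 8 libraries. The changed genes were drawn from those over 1 CPM. These shares therefore do not cover lower genes, litter or libraries that stand apart.

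Named genes were the 10 highest and 10 lowest with a symbol, a mean of at least 1 CPM, an adjusted p under 0.05 and no overlap, up to 5 members at the criterion per list by unadjusted p, genes that define a list's role, and the 5 leading genes of the interaction. The comparison, members and lists were chosen with earlier results of these data known. RefSeq's GRCr8 tables gave overlaps and promoters, with 95 of 96 named entries matched, and the results of 5 of these are not reported here. The 12 replicate pairs differed beyond counting noise (chi-square per gene 4.23 to 10.7). The limit that a count of 0 allows is 3 counts at 95% confidence and covers counting error only. The alternatives were DESeq2 1.42.0, the likelihood ratio test, RLE factors, library size alone, other filters, all 4 female groups fitted together, a block for the replicate number and each library left out.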

Additional observations from a re-analysis of the deposited data

Results flagged for a closer look

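Within groups of 4 libraries, 20 of 188 groups held a library far from the other 3 by Dixon's test, where chance gives about 1 in 20 for independent groups. The 188 groups share the same libraries and are not independent. They hold the Y-linked genes by which ID replicate 2 was singled out, and named genes often chosen for their values. The count of 20 is therefore a description and not a test against that rate. IS replicate 3 was far above the other IS rats for Pomc (120.1 CPM against 0.732 to 2.56), Slc17a6 (21.69 CPM against 12.37 to 12.95), Fos (23.79 CPM against 9.004 to 11.18) and RT1-M6-2 (9.797 CPM against 5.131 to 5.665), and below them for Slc9a4 (61.54 CPM against 70.8 to 72.64). Without IS replicate 3, the log2 fold change of Pomc was -0.16 in place of -4.63 and no longer met the criterion. Of the other hypothalamic and pituitary markers tested, Pmch, Lhb and Hcrt, none met it, and the list's summed level was 122.6 CPM in IS replicate 3. ID replicate 2 stood apart for the Y-linked genes Kdm5d (9.75 CPM of its total count) and Eif2s3y (15.4 CPM), which had no count in the other ID rats.

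The remaining values were single genes in various libraries. IS replicate 1 was high for Slc2a1 (122.3 CPM), Gjb6 (45.52 CPM) and Aco1 (45.98 CPM). IS replicate 2 was high for Fbxl2 (25.71 CPM) and low for Sesn1 (63.59 CPM), and IS replicate 4 was low for Npas4 (3.23 CPM) and high for Adrb1 (3.902 CPM). In the ID group, replicate 1 was low for Txnip (52.15 CPM) and Aif1 (10.88 CPM), replicate 3 was high for Slc2a1 (106.8 CPM) and Ttr (14.46 CPM), and replicate 4 was low for Tsc22d3 (47.63 CPM) and high for Nr4a3 (99.74 CPM).

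The change from IS to ID differed between batch II and batch I by the interaction test for 6 genes at an adjusted p under 0.05. On the log2 scale, female minus male, the differences were 1.94 for Rps27a, 0.93 for Gsn, 1.18 for Ifi27, 0.43 for Prrt1, -0.64 for Slc9a4 and -2.80 for Hdc. Sex and batch cannot be told apart here.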

How the results depend on the processing

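The number of genes at the criterion was 791 to 1219 over the other settings and 1641 without the fold limit. It was 858 to 1032 when 1 library was left out. The number at an adjusted p under 0.05, 28 as reported, was 193 with DESeq2, 161 with the likelihood ratio test, 75 with all genes of at least 1 count, 7 with the 4 female groups in one fit, and 10 to 62 with 1 library left out. For the difference between batches, 1157 genes at the criterion became 879 to 1768 with 1 library left out (1768 without male IS replicate 3), and 6 genes at an adjusted p under 0.05 became 23 with DESeq2 and 2 to 8 with 1 library left out (2 or 3 without female IS replicate 1 or 4, female ID replicate 3 or 4, male IS replicate 1, 2 or 4, or male ID replicate 2, 3 or 4). The cause was not tested.

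Same-numbered libraries did not deviate together (correlations -0.00656 to 0.0545), so the numbers do not pair them. With the replicate number as a block, 900 genes met the criterion and 21 the adjusted p, and for the difference 1234 and 9. All 77 named genes at the criterion kept their direction in every alternative, and 44 of them also stayed at the criterion. Of 14 named genes not at the criterion, 7 changed sign in some alternative, namely Ttr, Slc11a2, Gfap, Ftl1, Mbp, Slc40a1 and Fth1. With 1 library left out, their log2 fold changes ranged from -0.35 to 0.92 for Ttr, -0.061 to 0.0075 for Slc11a2, -0.11 to 0.027 for Gfap, -0.11 to 0.35 for Ftl1, -0.049 to 0.11 for Mbp, -0.11 to 0.088 for Slc40a1 and -0.050 to 0.061 for Fth1, which was -0.000831 with library size alone. Iron-handling genes at the criterion numbered 0 to 2 and astrocyte markers called lower 0 to 3 with 1 library left out. The depth limits low genes such as Hdc, Oasl and Ftl1, and the shallower batch I limits the comparison with it.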
